A study of Mus musculus with 2 samples.

Results

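The transcripts of 9 genes known as markers of tissue-resident macrophages were examined in single cells of CT26 tumors. The genes are *Mrc1*, *Stab1*, *Cd163*, *Folr2*, *Siglec1*, *Gas6*, *Cbr2*, *Ms4a7* and *Pmp22*, 9 of the 33696 genes listed in the files. They were picked by symbol, with their levels in the macrophages, monocytes and dendritic cells of these libraries already known. Their distribution over the cell clusters is therefore a description and supports nothing on its own.

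Macrophages of healthy tissues carry a set of surface receptors for taking up glycoproteins, lipoproteins, haemoglobin and dying cells, which monocytes that have just left the blood largely lack. Several of these receptors also mark a part of the macrophages found in tumors. A transcript alone cannot show whether a tumor macrophage descends from a resident cell or from a monocyte.

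CT26 cells, a colon carcinoma line from the mouse, had been grown under the skin of male BALB/c mice aged 6 to 8 weeks. The UT library came from untreated tumors, and the BUP library from tumors treated with BUP-Gel, a hydrogel that delivers bupivacaine (BUP) at 40 mg/kg, a local anesthetic that blocks nerve conduction. Live cells of 3 tumors per group were pooled, with sorted CD45+ (immune) and CD45- cells mixed at 4 parts to 1 according to the labels and 3 parts to 1 according to the methods. Each condition is thus 1 library and animals cannot be separated, so the conditions could not be tested against each other.

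The UT library held 83228442 unique molecular identifiers (UMIs, each 1 captured RNA molecule) in 7556 barcodes and the BUP library 89918925 in 7221. After filtering, 7163 UT and 6776 BUP-treated cells remained, with medians of 8430 and 10420 UMIs, and 68 of the kept barcode sequences occurred in both libraries. Immune cells numbered 5802 in UT and 4047 in BUP-treated tumors. Levels are UMIs of a gene per 1000000 UMIs of all cells of a cluster and library (CPM). All 95% intervals cover counting error only, not the spread between mice or libraries. Those of levels and ratios also leave out the spread between cells.

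The cells were clustered without the 9 genes and without the related genes described later, but genes that vary with them were used, and *Pmp22*, *Gas6* and *Ms4a7* were among the genes that led the C1q cluster. A C1q macrophage-like cluster, in which *C1qa* reached 4108 CPM in UT versus 4028 CPM in BUP-treated tumors, held 1074 UT and 435 BUP-treated cells. A cycling form of it held 276 and 65 cells. The interferon-led cluster (*Cmpk2*, *Rsad2* and *Ifit2* leading) held 212 and 85 cells, and the inflammatory cluster (*Inhba*, *Cxcl3* and *Thbs1* leading) held 1246 and 804. The monocyte-like cluster (*Adgre4*, *Ace* and *Chil3* leading) held 478 and 256 cells but was shallow, with 382 of its 734 cells under 2000 UMIs. Among dendritic cells, cDC1-like, migratory DC-like and pDC-like clusters were found, along with an unnamed cluster led by *Ctsk*, *Acp5* and *Cd209a*, genes of osteoclasts and of dendritic cells.

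The genes encode proteins of 3 kinds. The uptake receptors are *Mrc1* (mannose receptor CD206, ENSMUSG00000026712, chr2:14234151-14336926), *Stab1* (scavenger receptor stabilin-1, ENSMUSG00000042286, chr14:30860970-30890598), *Cd163* (receptor for haptoglobin bound to haemoglobin, ENSMUSG00000008845, chr6:124281606-124307560), *Folr2* (folate receptor beta, ENSMUSG00000032725, chr7:101489195-101506401) and *Siglec1* (the sialic acid-binding lectin CD169, ENSMUSG00000027322, chr2:130911140-130928685). *Gas6* (ENSMUSG00000031451, chr8:13515371-13544824) encodes a secreted ligand that bridges dying cells to the receptors *Axl* and *Mertk*. The others are *Cbr2* (a carbonyl reductase, ENSMUSG00000025150, chr11:120620312-120622940), *Ms4a7* (a membrane protein of the MS4A family, ENSMUSG00000024672, chr19:11298403-11313510) and *Pmp22* (a membrane protein best known from peripheral myelin, ENSMUSG00000018217, chr11:63019718-63050600). Positions are those of the GRCm39 annotation, GENCODE vM39.

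Because the genes share a pattern over the clusters, the 250 bases before the start of each gene's canonical transcript were read from GRCm39 and searched on both strands for fixed letters bound by macrophage transcription factors. The letters were TGCTGA (core of Maf sites), GAGGAA (core of Spi1 sites), CACGTG (E-box) and TTGCGCAA (C/EBP palindrome). The Maf letters and the Spi1 letters occurred in the same 2 of the 9 promoters, *Mrc1* and *Stab1*, against 14.8% and 22.9% of 21770 protein-coding promoters of this length. The E-box and the C/EBP palindrome occurred in 0 of the 9, against 6.26% and 0.165%. These 2 promoters are shown because they alone held a match, with the matched letters in capitals.
*Mrc1*, chr2:14233901-14234150, plus strand: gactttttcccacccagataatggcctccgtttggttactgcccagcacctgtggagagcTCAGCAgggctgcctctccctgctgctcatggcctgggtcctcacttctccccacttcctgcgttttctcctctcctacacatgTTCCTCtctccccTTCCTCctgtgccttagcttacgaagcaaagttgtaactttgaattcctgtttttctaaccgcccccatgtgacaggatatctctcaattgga
*Stab1*, chr14:30890599-30890848, minus strand: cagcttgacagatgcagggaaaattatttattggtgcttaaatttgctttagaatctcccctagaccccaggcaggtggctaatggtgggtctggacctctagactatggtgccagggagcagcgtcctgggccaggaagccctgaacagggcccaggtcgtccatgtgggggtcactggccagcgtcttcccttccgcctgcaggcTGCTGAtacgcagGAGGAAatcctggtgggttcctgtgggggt

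In the *Mrc1* promoter the matches lay on the opposite strand, so that the capitals TCAGCA and TTCCTC are the reverse complements of the searched letters, beginning 190, 106 and 93 bases before the start. In the *Stab1* promoter the matches lay on the gene's own strand, 43 and 30 bases before the start. A match is a description of letters and not of a bound site.

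Every one of the 9 genes had its highest level in the C1q macrophage-like cluster or its cycling form, in both libraries, among the 9 macrophage, monocyte and dendritic clusters. This held for 14.5% of 10193 genes with enough UMIs. For *Mrc1*, *Cd163*, *Gas6*, *Stab1*, *Ms4a7* and *Pmp22* the C1q cluster itself was the highest in both libraries, which held for 2.74% of genes. Since the genes were chosen with this pattern known, nothing is read from these counts.

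*Mrc1* kept a larger share of its C1q level in inflammatory cells than the other 8 genes. Its level was 1301 CPM in UT versus 929 CPM in BUP-treated C1q macrophage-like cells, 379 and 228 CPM in interferon-led cells, 278 and 245 CPM in inflammatory cells and 170 and 248 CPM in monocyte-like cells. The inflammatory cluster thus held 21.4% (20.5 to 22.2) of the C1q level in UT and 26.4% (25.0 to 27.9) in BUP-treated tumors. In cDC1-like and migratory DC-like cells *Mrc1* lay between 47.0 and 64.4 CPM, and the intervals of these clusters overlapped.

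*Stab1* was at 355 CPM in UT versus 295 CPM in BUP-treated C1q cells, at 57.5 and 50.6 CPM in inflammatory cells and at 43.4 and 45.0 CPM in monocyte-like cells. *Ms4a7* was at 583 and 575 CPM in C1q cells, at 330 and 195 CPM in interferon-led cells, at 68.6 and 68.5 CPM in inflammatory cells and at 31.2 and 10.6 CPM in monocyte-like cells. As a share of their own C1q level, the inflammatory cells held 16.2% (14.9 to 17.7) of *Stab1* and 11.8% (10.9 to 12.7) of *Ms4a7* in UT, below the share of *Mrc1*.

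*Pmp22* was at 266 CPM in UT versus 148 CPM in BUP-treated C1q cells and at 33.0 and 23.9 CPM in inflammatory cells, or 12.4% and 16.1% of the C1q level. *Cbr2*, *Folr2*, *Siglec1*, *Gas6* and *Cd163* had between 93.7% and 97.8% of their UMIs among UT monocyte-like and macrophage-like cells in the C1q cluster and its cycling form. In inflammatory cells these 5 genes lay at 2.38% to 4.15% of their C1q level in UT and at 1.47% to 3.40% in BUP-treated tumors. *Cd163* was the sparsest, with 420 UMIs in UT and 139 in BUP-treated C1q cells, a UMI in 10.8% and 9.20% of the cells, and 35.0% and 50.4% of these UMIs in only 5 cells.

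**Figure D1:**
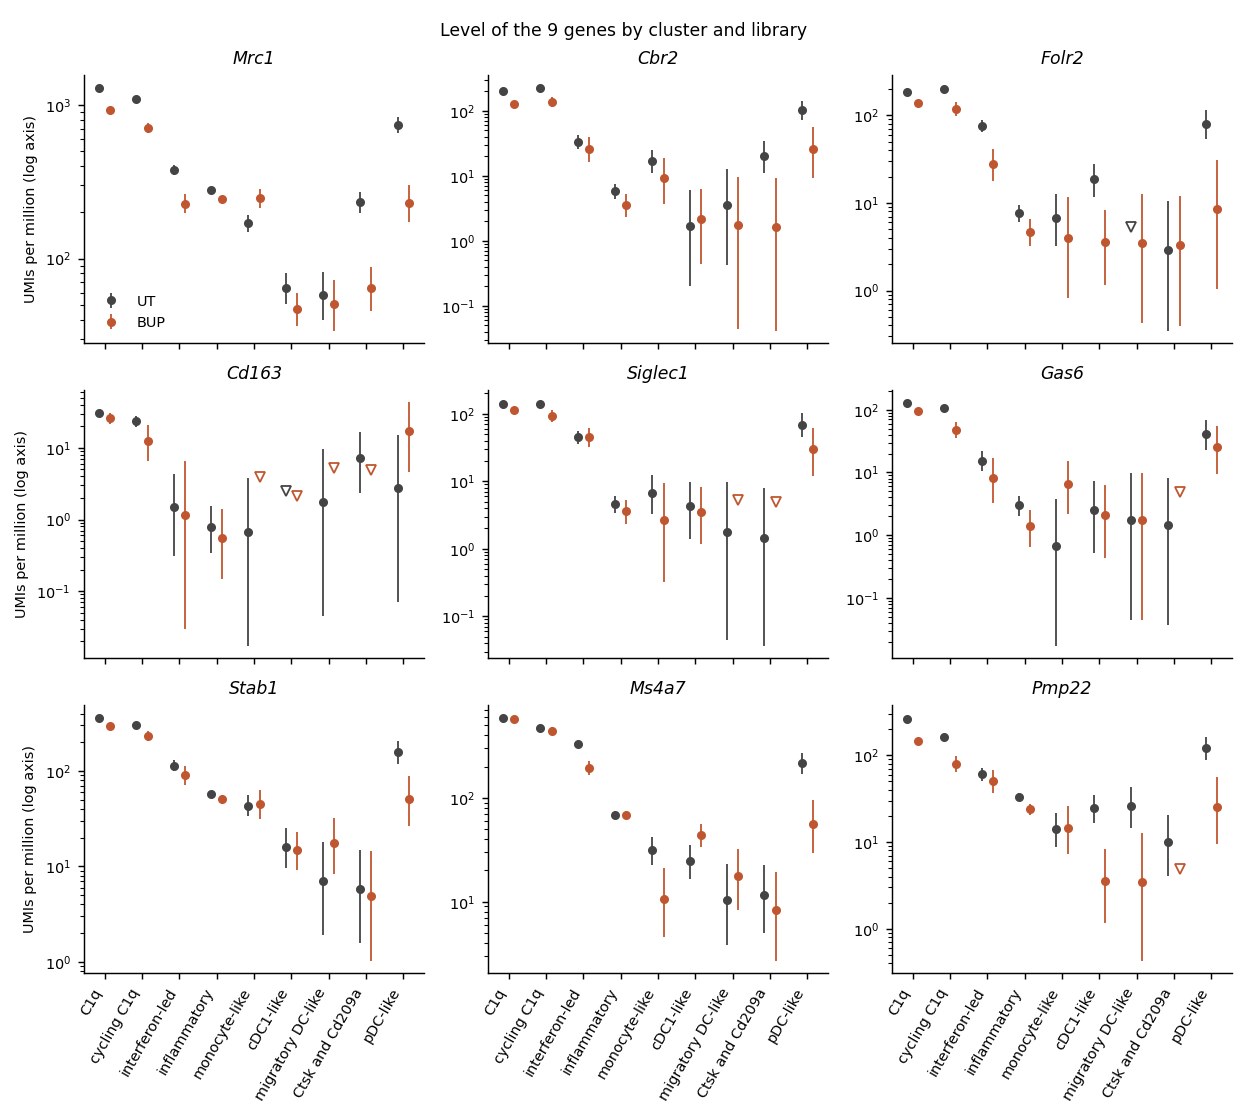
Level of each gene in CPM (y axis, log scale) in 9 clusters (x axis), for the UT library (grey) and the BUP library (orange), with bars for the exact 95% Poisson interval. Open triangles mark 3 counts where no UMI was found, and the C1q cluster and its cycling form lie highest in all 9 panels except for *Cd163* in BUP-treated cells, where the pDC-like point lies between them.

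The cycling C1q cells carried the same genes, most at a lower level and *Cbr2* at a slightly higher one in UT by summed UMIs. As mean log-normalized expression per cell in UT, *Cbr2* was at 0.598 (SD 0.819) in cycling and 0.566 (SD 0.867) in the other C1q cells. Whether it differed beyond the spread between cells was not tested. *Cbr2* and *Siglec1* were at 110% (103 to 118) and 101% (92.6 to 110) of the level of the other C1q cells in UT, so that *Siglec1* could not be told apart between these clusters. *Pmp22* was the lowest of the 9 relative to C1q cells in UT, at 60.6% (56.1 to 65.3). The interferon-led cluster stood between the C1q and the inflammatory cluster, with a median of 29.1% of the C1q level over the 9 genes in UT and 24.5% in BUP-treated cells. *Mrc1* was an exception in BUP-treated tumors, where its interferon-led level, 24.5% (21.2 to 28.3) of the C1q level, could not be told apart from the inflammatory one, 26.4% (25.0 to 27.9). The *Cd163* levels of these clusters could not be told apart in either library, with 3 UMIs in UT and 1 in BUP-treated interferon-led cells. *C1qa* was also intermediate there, at 1152 and 799 CPM.

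In lymphocytes, which should lack these transcripts, the 9 genes lay at 1.38% to 3.84% of their C1q level in UT CD8 T-like cells and at 0.875% to 4.18% in BUP-treated ones. NK-like cells had a median of 2.71% in UT and 0.943% in BUP-treated tumors. The levels of *Cbr2*, *Folr2*, *Siglec1*, *Gas6* and *Cd163* in inflammatory cells were thus in or near this range, which is taken over all 9 genes. Gene by gene they differed. *Folr2* in UT was at 4.15% (3.28 to 5.2), against 1.68% in CD8 T-like and 1.98% in NK-like cells. *Siglec1* in BUP-treated tumors was at 3.2% (2.07 to 4.73), against 0.875% and 0.373%. In UT *Cbr2* (2.92% against 3.55%) and *Gas6* (2.38% against 3.84%) lay below their CD8 T-like level. These levels are not read as expression, and their source was not tested. A cluster with both T cell and myeloid genes, in which 42.7% of cells had high doublet scores, held the genes at 30.8% to 59.1% of the C1q level in UT and 24.5% to 47.3% in BUP-treated tumors.

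The pDC-like cluster was small, at 33 and 22 cells, and *Mrc1* reached 745 CPM (659 to 840) there in UT against 231 CPM (173 to 301) in BUP-treated cells. However, 90.4% and 96.3% of these *Mrc1* UMIs came from 5 cells. *C1qa*, which plasmacytoid dendritic cells are not known to make, stood at 2172 and 688 CPM in this cluster. Of its cells 9.09% had high doublet scores, and the source of these transcripts was not tested. In the cluster led by *Ctsk* and *Acp5*, *Mrc1* was at 234 CPM (199 to 273) in UT and 64.3 CPM (45.7 to 87.9) in BUP-treated cells, while *Ctsk* was at 246 and 5553 CPM. The 2 libraries thus did not fill this cluster with alike cells.

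Within the C1q macrophage-like cluster, 5 of the 9 genes were lower in the BUP library past the fold used throughout, a log2 ratio beyond 0.32 in either direction, and 0 of 9 were higher past it (7.52% of all genes were). Of all 7981 genes with at least 200 UMIs in this cluster, 7.44% were lower by this fold. The median log2 ratio (BUP over UT) was -0.43 over the 9 genes and -0.02 over all genes. Summed over the 9 genes the level was 3185 CPM (3155 to 3214) in UT and 2442 CPM (2400 to 2484) in BUP-treated cells, a log2 ratio of -0.38 (-0.41 to -0.36). Markers of other cells moved beside them. In the same C1q cells all 6 neutrophil markers were higher in the BUP library, with a summed level of 1475 CPM in UT against 3243 CPM (*S100a8* 370 and 971 CPM, *S100a9* 779 and 1846 CPM), as were 8 of 9 monocyte markers, summed at 486 and 704 CPM, and 5 of 6 markers of inflammatory macrophages (*Il1b* 663 and 1036 CPM), summed at 3170 and 3255 CPM. None of these markers was at 0, and their part in the result was not tested.

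*Pmp22* had the lowest log2 ratio of the 9, at -0.84 (-0.95 to -0.73), followed by *Cbr2* at -0.68 (-0.80 to -0.56), from 200 to 125 CPM. *Mrc1* was at -0.49 (-0.53 to -0.44). *Gas6* was at 127 CPM in UT versus 93.9 CPM in BUP-treated cells, with a log2 ratio of -0.44 (-0.58 to -0.29), and *Folr2* at 185 and 138 CPM, with -0.43 (-0.55 to -0.31). These were the 5 genes past the fold. *Siglec1* (137 and 112 CPM), *Stab1* and *Cd163* (30.3 and 25.9 CPM) were within the fold, at -0.30 (-0.43 to -0.16), -0.26 (-0.35 to -0.18) and -0.22 (-0.51 to 0.06). *Ms4a7* had nearly equal levels, with a log2 ratio of -0.02 (-0.08 to 0.04).

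**Figure D2:**
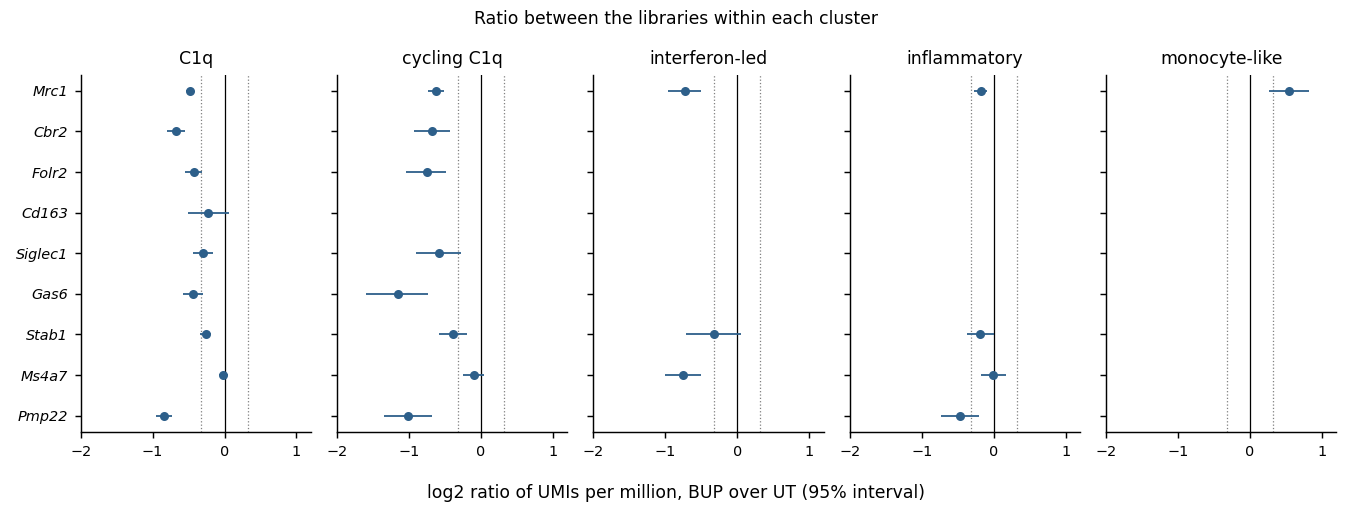
Log2 ratio of the level in the BUP library over the UT library (x axis) for each gene (y axis) in 5 clusters, with 95% intervals for counting error, shown where a gene had at least 200 UMIs over both libraries. Dotted lines mark a log2 ratio of 0.32 in either direction, *Ms4a7* lies at 0 in the C1q and inflammatory clusters, and *Mrc1* in monocyte-like cells is the point to the right of 0.

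The size of this difference changed when cells were thinned or split by depth. When every cell was thinned to 2000 UMIs, so that each counted alike, the log2 ratio of the summed genes was -0.19, and 3 of the 9 genes were lower past the fold. They were *Cbr2* at -0.49 (-0.81 to -0.17), *Pmp22* at -0.35 (-0.65 to -0.06) and *Mrc1* at -0.34 (-0.46 to -0.23). *Pmp22* was thus no longer the lowest once cells were thinned. A split at the median depth of the cluster, 11537 UMIs, chosen after this was seen, gave a log2 ratio of -0.51 (-0.54 to -0.47) in the 555 UT and 200 BUP-treated cells at or over it, from 3301 to 2321 CPM. In the 519 UT and 235 BUP-treated cells under it the ratio was -0.05 (-0.10 to 0.00), from 2835 to 2736 CPM.

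*Mrc1*, *Cbr2* and *Pmp22* were lower in the BUP library on both sides of the split, at -0.21 (-0.29 to -0.12), -0.51 (-0.76 to -0.27) and -0.41 (-0.63 to -0.19) in the shallower cells and at -0.59, -0.72 and -0.96 in the deeper ones. *Siglec1* and *Ms4a7* were higher in the shallower BUP-treated cells, at 0.34 (0.10 to 0.59) and 0.23 (0.12 to 0.34), and lower in the deeper ones, at -0.54 (-0.71 to -0.38) and -0.14 (-0.21 to -0.07). *Stab1*, *Gas6*, *Folr2* and *Cd163* had intervals that included 0 in the shallower cells. C1q cells were deeper in the UT library, with a median of 11878.5 UMIs against 10392, and the part of depth in these ratios was not tested.

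**Figure D3:**
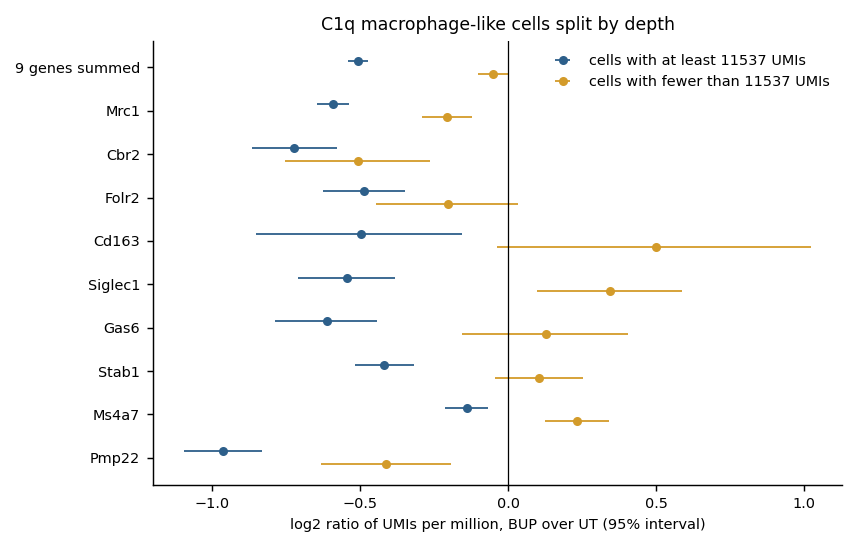
Log2 ratio of the level in the BUP library over the UT library (x axis) for the 9 genes summed and for each gene (y axis), in C1q macrophage-like cells with at least 11537 UMIs (blue) and with fewer (yellow), with 95% intervals for counting error. All blue points lie to the left of 0, and the yellow points of *Cd163*, *Siglec1*, *Gas6*, *Stab1* and *Ms4a7* lie to the right of it.

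In cycling C1q cells 7 of the 8 genes with enough UMIs were lower in the BUP library past the fold, where 13.2% of 5008 genes were lower. *Gas6* had the lowest ratio, from 106 to 47.6 CPM, at -1.15 (-1.60 to -0.73), and *Pmp22* was at -1.01 (-1.35 to -0.69), from 161 to 79.9 CPM. *Mrc1* was at 1100 and 711 CPM, with -0.63 (-0.74 to -0.52). *Ms4a7* was within the fold, at 474 and 441 CPM and -0.10 (-0.25 to 0.04). The BUP library had 65 such cells, and these ratios depended on the clustering. With the stricter cell filter, a resolution of 1.0 or 30 principal components the cluster held 145, 152 or 155 BUP-treated cells, *Ms4a7* was past the fold at -0.53, -0.47 or -0.56, and *Cbr2*, at -0.68 here, was at -1.52, -1.49 or -1.24. *Stab1*, at -0.38 here, was at -1.08, -0.98 or -0.98, and *Siglec1*, at -0.59 here, at -1.03, -0.91 or -0.89. *Gas6* was at -1.46, -1.29 or -1.18 under these settings, each above *Cbr2*, and so did not have the lowest ratio there. With cells thinned to 2000 UMIs *Stab1*, at -0.09 (-0.63 to 0.42), and *Siglec1*, at -0.31 (-1.21 to 0.49), were within the fold, and *Mrc1* was at -0.33 (-0.64 to -0.03). *Gas6*, at -1.92 (-3.84 to -0.49), and *Cbr2*, at -1.19 (-2.29 to -0.25), were lower still in the thinned cells. In the same cells all 5 osteoclast-like markers were higher in the BUP library, with a summed level of 141 CPM in UT against 331 CPM (*Ctsk* 42.4 and 121 CPM), as were 5 of 6 neutrophil markers, summed at 1229 and 1990 CPM. All 6 markers of the interferon-led cluster were lower, summed at 380 and 227 CPM. None of them was at 0, and their part in the result was not tested.

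In interferon-led cells 2 of the 3 genes with enough UMIs were lower past the fold, against 9.47% of 2355 genes. *Mrc1* was at -0.73 (-0.97 to -0.50), and *Ms4a7*, nearly equal in C1q cells, was here at -0.76 (-1.01 to -0.51). *Stab1* lay at the edge of the fold, at -0.321 (-0.71 to 0.06), and was past it with the stricter filter (-0.35), a resolution of 1.0 (-0.36), 30 principal components (-0.43) and thinned cells (-0.68). In the same cells all 4 markers of C1q macrophages were lower in the BUP library, summed at 5150 CPM in UT against 4200 CPM. The T cell markers were summed at 104 and 194 CPM, with 6 of 8 higher, the neutrophil markers at 2324 and 3464 CPM, with 3 of 6 higher (*S100a8* 551 and 1056 CPM), and the inflammatory macrophage markers at 3952 and 5105 CPM, with 5 of 6 higher. None of these markers was at 0 in both libraries, and their part in the ratios was not tested.

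In inflammatory cells 1 of the 4 genes with enough UMIs, *Pmp22*, was lower past the fold, at -0.47 (-0.74 to -0.20), against 9.36% of 7193 genes. *Mrc1* was within the fold there, at -0.18 (-0.27 to -0.10), *Stab1* at -0.18 (-0.38 to 0.01), and *Ms4a7* at 0.00 (-0.17 to 0.17). With 30 principal components all 4 were past the fold, *Mrc1* at -0.54, *Stab1* at -0.41, *Ms4a7* at -0.45 and *Pmp22* at -0.61. *Ms4a7* stayed within the fold, at -0.285 to -0.317, with the stricter filter, a resolution of 1.0 or the 9 genes kept among the variable genes. With thinned cells it was past the fold, at -0.38 (-0.75 to -0.015). In the same inflammatory cells the neutrophil markers were summed at 479 CPM in UT against 943 CPM, with 4 of 6 higher in the BUP library, the monocyte markers at 1642 and 1381 CPM, with 3 of 9 higher (*Ly6c2* 267 and 129 CPM), the osteoclast-like markers at 137 and 80.9 CPM, with 1 of 5 higher, and the C1q macrophage markers at 1817 and 1966 CPM, with 3 of 4 higher. Their part in the ratios was not tested.

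In monocyte-like cells only *Mrc1* had enough UMIs (251 in UT and 187 in BUP-treated cells), so 0 of 1 was lower past the fold, where 11.2% of 1941 genes were, and 1 of 1 was higher, where 10.5% were. Its log2 ratio was 0.54 (0.26 to 0.82). A *Mrc1* UMI was found in 18% (14.7 to 21.7) of UT and 21.1% (16.3 to 26.6) of BUP-treated cells, intervals that overlapped, and 39% and 47.1% of the UMIs lay in 5 cells. The ratio was within the fold with 30 principal components, at 0.30 (0.06 to 0.53), and with the stricter cell filter, at 0.31 (-0.56 to 1.13), where the interval included 0.

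When monocyte-like and macrophage-like cells were pooled, 3286 in UT and 1645 in BUP-treated tumors, 9 of the 9 genes were lower past the fold, where 14.1% of 9856 genes were. Their log2 ratios ran from -0.40 for *Ms4a7* (364 to 276 CPM) to -1.13 for *Cbr2* (124 to 56.8 CPM), and the summed level was 1998 CPM in UT versus 1230 CPM in BUP-treated cells, at -0.70 (-0.72 to -0.68). The makeup of this pool differed too. The C1q cluster gave 42.2% of its UMIs in UT and 35.0% in BUP-treated tumors, the cycling form 15.8% and 6.87%, and the inflammatory cluster 31.3% and 47.6%.

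The C1q cluster and its cycling form held 88.9% of the summed UMIs of the 9 genes in UT and 80.0% in BUP-treated tumors of this pool. With the cluster shares of the UT library applied to both, the BUP level became 1510 CPM and the log2 ratio -0.40. For *Ms4a7* the ratio then was -0.07 in place of -0.40, and for *Pmp22* -0.82 in place of -1.07. The C1q cluster made up 18.5% (17.5 to 19.5) of UT and 10.7% (9.81 to 11.7) of BUP-treated immune cells and its cycling form 4.76% (4.22 to 5.34) and 1.61% (1.24 to 2.04), shares of 1 library each that also depend on the sort and the digestion of the tumors.

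After thinning to 2000 UMIs, a C1q macrophage-like cell had a UMI of 2.89 (SD 1.61 over 1013 cells) of the 9 genes on average in UT and of 2.53 (SD 1.61 over 417 cells) in BUP-treated tumors. At least 3 of the genes were found in 55.7% (52.6 to 58.8) of UT and 43.2% (38.4 to 48.1) of BUP-treated cells, and at least 5 in 15% (12.9 to 17.4) and 12.9% (9.88 to 16.6), where the intervals overlapped. With cells thinned to 1000 UMIs the shares with at least 3 genes were 27.8% (25.1 to 30.6) and 21.8% (18 to 26), and these intervals overlapped. In interferon-led cells at least 3 genes were found in 18.3% (13.3 to 24.2) and in 3.9% (0.811 to 11, 3 of 77 cells) at 2000 UMIs, and in 7.55% (4.38 to 12) and 6.02% (1.98 to 13.5) at 1000 UMIs, where the intervals overlapped. At 2000 UMIs the shares were, in inflammatory cells, 1.55% and 1.01%, and in NK-like cells 0.251% and 0 of 282 cells, which allows a share of up to 1.30%.

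**Figure D4:**
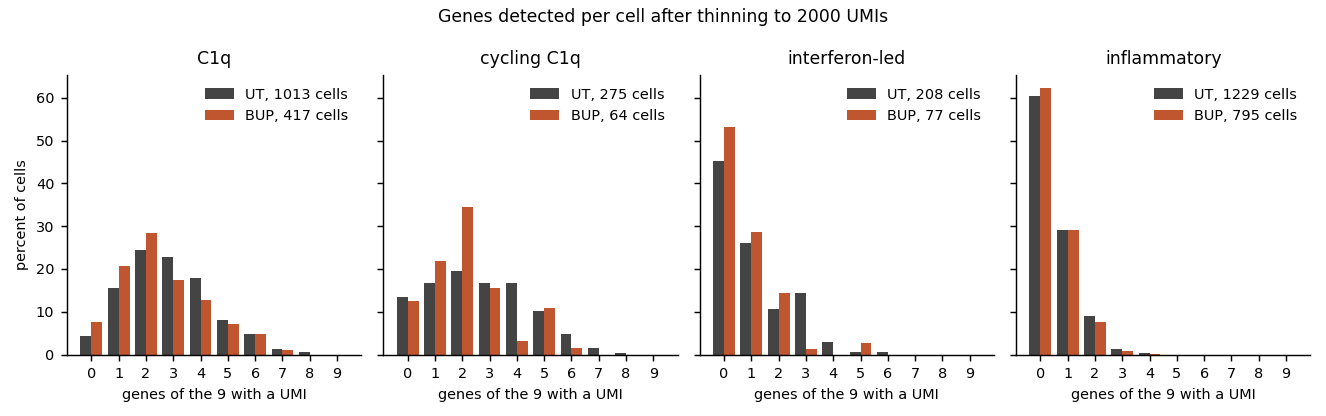
Percent of cells (y axis) by the number of the 9 genes with a UMI after thinning to 2000 UMIs (x axis), in 4 clusters, for UT (grey) and BUP-treated cells (orange). The most frequent number in C1q cells was 2 in both libraries, and most inflammatory cells had none.

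The share of C1q cells with a UMI of each gene, thinned alike, was 77.1% (74.4 to 79.7) in UT and 67.1% (62.4 to 71.6) in BUP-treated cells for *Mrc1*, against 95.1% and 90.8% unthinned and 2.33% and 1.11% in thinned CD8 T-like cells. *Pmp22* was found in 26.2% (23.5 to 29.0) and 18.9% (15.3 to 23.0). For *Stab1* the thinned shares were 44.8% (41.7 to 47.9) and 38.1% (33.4 to 43.0), and for *Ms4a7* 57.8% and 57.6%. The intervals of UT and BUP-treated cells overlapped for *Stab1*, *Ms4a7* and the other 5 genes, whose shares ran from 2.67% to 24.5% in UT.

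Of the 36 pairs of the 9 genes, 32 were found together in C1q cells of both libraries, in that cells with a UMI of 1 gene had a UMI of the other more often than cells without it. Over all 31844190 pairs of genes with enough UMIs in these cells, many of them sparser, this held for 23.9%. *Gas6* was found in 38.5% of the 192 UT cells with *Cbr2* and in 12.7% of the 821 without it, and in 29.9% of 67 and 10.9% of 350 BUP-treated cells. *Folr2* was found in 27.4% of UT cells with *Mrc1* and 14.7% of those without. The pair *Ms4a7* and *Pmp22* was the exception in both libraries. *Pmp22* was found in 24.6% of UT cells with *Ms4a7* and 28.3% of those without, and in 16.7% and 22.0% of BUP-treated cells. These shares describe cells of 1 library each, and no test was made.

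The genes whose levels over the 9 clusters and 2 libraries, 18 points, were most like the mean of the members were *Cltc* (Pearson r = 0.97), *Ccl8* (0.96), *C1qb* (0.95), *C1qa* (0.95), *C1qc* (0.94), *Igsf8*, *Itm2b*, *Ntpcr*, *Snx2* and *Tmem9* (0.92 to 0.93). The points share 2 libraries and the r is a description only. *Cltc* encodes the heavy chain of clathrin, the coat of endocytic vesicles, and *Ccl8* a chemokine. The members themselves had r values of 0.82 (*Cd163*) to 0.97 (*Siglec1*) with the same mean, of which each is a part. Over 1430 thinned C1q cells the highest values with the number of member UMIs were weak, at 0.37 for *Lgmn* and 0.35 for *Selenop*, and are no finding in counts this sparse.

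The name given to the 9 genes was set beside other genes of resident macrophages from a list of 21. *Cd209f*, *Cd209g*, *Marco*, *Cd5l* and *Clec4f*, genes of macrophages in particular organs such as liver and spleen, had no UMI in C1q cells. *Timd4*, *Vsig4* and *Igf1* were low, at 4.69, 6.28 and 5.77 CPM in UT C1q cells. *Lyve1*, a receptor for hyaluronan, was at 36.7 CPM in UT versus 23.9 CPM in BUP-treated cells, with a UMI in 7.17% and 3.91% of them. *Pf4* (1435 and 993 CPM), *Ccl8* (1304 and 1297 CPM) and *Selenop* (521 and 450 CPM) were abundant. The C1q cells thus carried some of these genes and lacked others, and the origin of the cells was not measured.

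Of the 21 genes 10 were highest in the C1q cluster or its cycling form in both libraries, *Vsig4* and *Igf1* at low levels among them, where 14.5% of genes with enough UMIs were, and 12 had enough UMIs in C1q cells. Among these, *Lyve1* (log2 ratio -0.62, -0.91 to -0.34), *Pf4* (-0.53, -0.57 to -0.49) and *Clec10a* (-0.50, -0.93 to -0.08) were lower in the BUP library past the fold. *Ccl24* (0.76, 0.65 to 0.88), an eotaxin, and *Cx3cr1* (0.95, 0.78 to 1.13), the receptor of fractalkine, were higher. The remaining 7 were within the fold, so the list as a whole did not go 1 way.

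The receptors *Axl* and *Mertk* were not lower in the BUP library as their ligand *Gas6* was. *Axl* was at 33.0 CPM in UT versus 49.3 CPM in BUP-treated C1q cells, higher past the fold at 0.58 (0.35 to 0.80), *Mertk* was at 46.5 and 54.3 CPM, at 0.22 (0.02 to 0.42), and *Tyro3* had 2 UMIs in UT and 1 in BUP-treated cells. *Pros1*, the other bridging ligand, was at 0.05 (-0.21 to 0.32).

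*Cd163* takes up haemoglobin, whose haem is broken down by *Hmox1* and whose iron is stored in ferritin. Of 6 genes of this route, *Hmox1* was lower past the fold, from 752 to 490 CPM at -0.62 (-0.68 to -0.56), *Hp*, which encodes haptoglobin, was higher at 0.82 (0.65 to 0.98), and 4 were within it. *Hp* was highest in monocyte-like cells, at 597 CPM in UT.

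Of 7 other endocytic receptors 4 had enough UMIs. *Cd36* was lower, from 113 to 71.3 CPM at -0.66 (-0.83 to -0.50), *Clec7a*, the beta-glucan receptor, was higher, from 189 to 261 CPM at 0.46 (0.37 to 0.56), and *Msr1* (-0.14) and *Lrp1* (-0.17) were within the fold. Of 6 other genes of the *Ms4a7* family, *Ms4a4a* (-0.33, -0.39 to -0.27) and *Ms4a4b* (-0.88, -1.39 to -0.40) were lower past the fold and 4 were within it, and 5 of these 6 were highest in interferon-led cells in both libraries.

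Of 8 transcription factors *Gata6*, the factor of peritoneal macrophages, had no UMI in C1q cells, and 4 had enough UMIs. *Maf* was at 229 and 204 CPM (-0.16) and *Spi1* at 492 and 521 CPM (0.08), both within the fold. *Id3* was higher in the BUP library, from 6.93 to 22.9 CPM at 1.73 (1.33 to 2.13), at a low level. Over all 52 related genes, 46 had a UMI in C1q cells, 35 had enough, and 7 were lower and 6 higher past the fold, with a median of -0.14. Of all genes 7.44% were lower and 7.52% higher, with a median of -0.02, and the median of the 9 genes was -0.43.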

How the data were processed

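The authors sequenced 5′ single-cell libraries, 1 of UT and 1 of BUP-treated tumors, and deposited whole-number counts of UMIs per gene and barcode, made with Cell Ranger 8.0.1 on GRCm39 per the labels, with no normalization. These counts were used as deposited. Groups were taken from the labels. Following the study's methods, a barcode was kept if it had over 100 UMIs, less than 20% of them mitochondrial. Cells were clustered in Seurat 5.3.0 (R 4.3.3) on 2000 variable genes, leaving out the 9 genes and the related lists, 20 principal components and a resolution of 0.5, without integration. Clusters were taken as immune where *Ptprc* was seen in 30% or more of the cells, clustered again and named from marker genes. The 9 genes, the lists and the clusters' names were chosen with earlier results of these data known.

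UMIs were summed over the cells of a cluster and library and given per 1000000. Sums carry exact Poisson intervals, shares exact binomial intervals and log2 ratios exact intervals conditional on the sum, at 95%, for counting error only. For a count of 0 the upper limit was 3 counts. A gene with 200 or more UMIs (both libraries summed) was called past a log2 ratio of 0.32, with no test, since each condition is 1 library. For shares of cells, cells were thinned to 2000 random UMIs, leaving out shallower cells. Doublets were scored with Scrublet in scanpy 1.11.5 and kept, and the highest 6% were removed as an alternative. The calculation was tested on simulated sums of 7981 genes of C1q macrophage-like cells, where the intervals held the known ratio for 96.0% of 200 genes changed by 0.5 on the log2 scale and 95.5% of the others. These sums were drawn as Poisson counts, which the intervals assume. The check thus covers the calculation and cannot show how the intervals perform where UMIs gather in a few cells. Other steps used scipy 1.17.1, numpy 2.4.6 and pandas 2.3.3 in Python 3.11.15, with figures by matplotlib 3.10.9. Named related genes are those past the fold and those without a UMI, together with further genes chosen after their values had been seen. Promoter sequence is GRCm39 with GENCODE vM39, and protein sequences were not used here. The alternatives tried were a stricter cell filter, other clustering settings, doublet removal, another scaling, thinning, another fold and minimum, mean log expression and fixed cluster shares.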

Additional observations from a re-analysis of the deposited data

Results flagged for a closer look

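*Mrc1* went opposite ways between the libraries in different clusters. Its log2 ratio, BUP over UT, was 0.54 in monocyte-like cells and -0.49 in C1q macrophage-like, -0.63 in cycling C1q, -0.73 in interferon-led and -0.18 in inflammatory cells, and -1.86 in the cluster led by *Ctsk* and *Cd209a* and -1.69 in pDC-like cells. These last clusters held unlike cells in the 2 libraries (*Ctsk* at 246 and 5553 CPM) or had 90.4% and 96.3% of their *Mrc1* UMIs in 5 cells. The ratio in monocyte-like cells was 0.31 (-0.56 to 1.13) with the stricter cell filter. The difference between clusters was not tested, and each value compares 1 library with 1 other.

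Signal above the level in lymphocytes was also found outside the myeloid clusters. *Pmp22* was at 254 CPM in UT versus 308 CPM in BUP-treated fibroblast-like cells, or 95.5% and 207% of the level in C1q macrophage-like cells, and at 171 and 161 CPM in mast-like cells. In fibroblast-like cells, 15 in UT and 64 in BUP-treated tumors, *Gas6* reached 58.3 and 8.41 CPM. *Ms4a7* was at 134 CPM in BUP-treated mast-like cells, from 10 UMIs in 3 of 35 cells.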

How the results depend on the processing

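The summed level of the 9 genes had a log2 ratio below 0 in C1q macrophage-like cells under every alternative run, but its size moved. The log2 ratio of -0.38 became -0.42 with a stricter filter on cells, -0.32 at a resolution of 1.0, -0.44 with 30 principal components, -0.45 with the 9 genes and related genes kept among the variable genes and -0.19 with cells thinned to 2000 UMIs. It was -0.051 in cells under the median depth and -0.51 in those at or over it, a split chosen after seeing the data. The count of genes lower past the fold, 5, became 8 with 30 principal components, 7 with the 9 genes and related genes kept among the variable genes, 3 with thinned cells and 2 at 1.5-fold. For the pooled monocyte-like and macrophage-like cells, the ratio of -0.70 became -0.74 with the stricter filter, -0.75 at a resolution of 1.0, -0.72 with 30 principal components, -0.61 with median-ratio scaling, -0.50 with thinned cells and -0.40 at UT cluster shares. The log2 ratio of C1q over inflammatory cells, 2.79 in UT and 2.60 in BUP-treated tumors, became 2.48 in UT with 30 principal components, and in BUP-treated tumors 2.74 at a resolution of 1.0 and 2.82 with thinned cells. Signs reversed for *Stab1* in cycling cells as a mean log difference (0.0337), and for *Siglec1* (0.34), *Gas6* (0.13) and *Stab1* (0.10) in C1q cells under the median depth. In these shallower cells *Cd163* (0.50) and *Ms4a7* (0.23), whose intervals over all C1q cells included 0, were also above 0. *Ms4a7* in C1q cells was 0.095 (0.033 to 0.156) at a resolution of 1.0 and 0.13 with thinned cells, and *Cd163* was 0.31 with thinned cells. *Stab1* in inflammatory cells was 0.09 with thinned cells. The intervals of these values of *Ms4a7*, *Cd163* and *Stab1* with thinned cells included 0. In the shallower C1q cells the intervals of *Gas6*, *Stab1* and *Cd163* included 0, and those of *Siglec1* and *Ms4a7* did not. The cause was not tested. The log2 ratio of *Mrc1* in monocyte-like cells ran from 0.30 to 0.57, and the difference of its mean log expression per cell was 0.07. Of 268 alternative values, 190 stayed within the 95% interval or the fold of 1.5 for counts (mean log differences, on another scale, were compared by sign only), 74 moved further and 4 reversed. No paired analysis was possible because each condition has 1 library.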
